A study of Mus musculus with 17 samples.

Results

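The genes described here are a ligand, receptors and transcriptional targets of fibroblast growth factor (FGF) signalling in mouse embryonic stem cells, together with the inhibitors that act back on the pathway. The 10 genes, chosen by name, are *Fgf4*, *Fgfr1*, *Fgfr2*, *Spry2*, *Spry4*, *Spred1*, *Dusp6*, *Etv4*, *Etv5* and *Egr1*, out of 54532 genes listed. All 10 reached 1 TPM, a unit of reads scaled to gene length and library size, in 2 or more of the 17 libraries, as did the 21871 genes that were tested. RNA was sequenced from wild-type R1 mouse embryonic stem cells, from a *Usb1* knockout line, and from both after 1 day and 3 days of retinoic acid (RA), a common inducer of differentiation. Wild-type cells had 2 biological replicates before RA (day 0) and 3 at each of day 1 and day 3. *Usb1* knockout cells had 3 at each of the 3 time points. The knockout libraries came from a single line, KO-1, made with CRISPR/Cas9, so that a difference between cell lines and an effect of the knockout cannot be told apart. *Usb1* encodes an exonuclease that trims the end of U6 small nuclear RNA, a component of the spliceosome. The dose of RA and the culture medium were not given in the sources used here.

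FGF4 is secreted by embryonic stem cells and acts on the same cells through FGF receptors, chiefly FGFR1 and FGFR2, which pass the signal through Ras to the kinase ERK. ERK signalling raises transcription of a set of rapid targets, among them the ETS-family transcription factors ETV4 and ETV5, the ERK phosphatase DUSP6 and the Sprouty and Spred proteins, which restrain the cascade above ERK. These targets are widely used as a transcript readout of the pathway, which moves embryonic stem cells out of self-renewal and favours primitive endoderm over epiblast in the early embryo.

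Reads on genes numbered 15404379 to 17300186 in the 17 libraries. One library stood furthest apart in its rare transcripts: 239 genes had 1 read in wild-type replicate 1 at day 0, against 1224 to 2467 in the other libraries. Knockout replicate 1 at day 3 (1224) and wild-type replicate 2 at day 0 (1352) were also low, against 2150 to 2467 in the rest. Values against wild-type day 0 that lost significance or moved by over 1.5 times without wild-type replicate 1 are also given without it. Such values rest on wild-type replicate 2 alone at day 0. *Usb1* transcripts were still detected in the knockout line, and lay between 14.7 and 21.4 TPM in the 9 knockout libraries and between 32.0 and 56.9 TPM in the 8 wild-type libraries. Markers of embryonic stem cells were high at day 0: the sum of 7 such genes was 5233 to 5325 TPM in wild-type and 5081 to 5548 TPM in *Usb1* knockout libraries. Of 7 genes of fibroblasts, a common feeder cell, 5 had a mean under 1 TPM in both genotypes at day 0. In bulk RNA, fewer cells of a type and less RNA per cell cannot be told apart. Levels are given as TPM, a value per length of transcript that allows genes to be compared. Differences are given as log2 of TPM + 1 from limma, with their standard error (SE), and a gene is named as called where the difference was at least 2-fold on that scale and its p, adjusted over all 21871 genes by Benjamini-Hochberg, was under 0.05. The scale understates the change of genes of low TPM.

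*Spry2* fell earlier under RA than *Fgf4* and *Etv5*, which followed similar courses. The promoters of these 3 genes, a feedback inhibitor, a ligand and a transcription factor of the set, are given here. They are RefSeq sequences of build GRCm38.p6 from 250 bases before to 50 bases after the start site, at chr7:144861136-144861435 on the + strand (*Fgf4*), chr14:105896770-105897069 on the - strand (*Spry2*) and chr16:22439521-22439820 on the - strand (*Etv5*). Capitals mark the letters GGGCGG, a GC box, on either strand in *Fgf4* and *Etv5*, and CCGGAA, one form of the ETS-factor core, in *Spry2*.
Fgf4: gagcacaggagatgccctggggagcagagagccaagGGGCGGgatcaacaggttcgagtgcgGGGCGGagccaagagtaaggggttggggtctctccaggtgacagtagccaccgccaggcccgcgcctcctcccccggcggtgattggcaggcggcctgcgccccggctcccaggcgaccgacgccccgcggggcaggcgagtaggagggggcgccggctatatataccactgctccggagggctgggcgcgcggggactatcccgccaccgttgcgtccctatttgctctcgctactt
Spry2: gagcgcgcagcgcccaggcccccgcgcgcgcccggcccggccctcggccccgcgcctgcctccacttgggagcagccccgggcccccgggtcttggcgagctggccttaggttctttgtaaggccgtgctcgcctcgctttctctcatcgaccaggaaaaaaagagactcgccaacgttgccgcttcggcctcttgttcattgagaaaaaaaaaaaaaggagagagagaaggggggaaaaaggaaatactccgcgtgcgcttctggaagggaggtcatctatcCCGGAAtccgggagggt
Etv5: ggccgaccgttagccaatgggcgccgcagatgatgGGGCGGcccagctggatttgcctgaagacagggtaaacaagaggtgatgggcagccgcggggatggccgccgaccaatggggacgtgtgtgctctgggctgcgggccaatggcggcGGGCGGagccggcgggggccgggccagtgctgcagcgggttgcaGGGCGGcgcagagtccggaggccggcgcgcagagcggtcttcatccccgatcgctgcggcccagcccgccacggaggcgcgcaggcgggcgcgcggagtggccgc
Promoters were read for 6 of the 10 genes, which were these 3, *Fgfr2*, *Spred1* and *Dusp6*, while *Fgfr1*, *Spry4*, *Etv4* and *Egr1* were not analysed here. The GC box stood in *Fgf4*, *Spred1* and the *Etv5* promoter above, and 35.7% of 32851 mouse promoters of the same length hold it. A second *Etv5* promoter, at chr16:22438319-22438618 on the - strand, held no GC box and no ETS core. The ETS core stood in *Spry2*, against 14.9% of all promoters. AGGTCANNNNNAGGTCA, a spacing of half-sites bound by RA receptors, was in none of the 6 and in 0.00913% of all promoters. No 2 matches overlapped, both strands were searched, and such matches describe the letters of these windows only.

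*Fgf4*, the ligand, was among the most abundant of the 10 transcripts at day 0 and day 1 and nearly gone by day 3 (chromosome 7, 144847367 to 144865243, + strand, GRCm38). Wild-type libraries held 336 and 310.3 TPM at day 0, 245, 237 and 234 TPM at day 1 and 3.45, 1.98 and 3.27 TPM at day 3. *Usb1* knockout libraries held 277, 264 and 262 TPM, 284, 288 and 258 TPM and 11.5, 10.8 and 9.26 TPM at the same days. The genotypes did not overlap at any day, with the knockout lower at day 0 and higher at day 1 and day 3. The log2 difference was -0.27 (SE 0.13, adjusted p = 0.204) at day 0 and 0.21 (SE 0.12, adjusted p = 0.269) at day 1. Neither was called. Here and for the other genes, the share of all genes without overlap is not given. From day 0 to day 3 the mean fell 111-fold in wild-type cells and 25.5-fold in knockout cells, a log2 difference of -6.40 (SE 0.13, adjusted p = 6.02e-14) and of -4.55 (SE 0.12, adjusted p = 4.25e-13). At day 1 the level had dropped in wild-type cells to 73.9% of day 0, by a log2 difference of -0.43 (SE 0.13, adjusted p = 0.0186), which was -0.38 (adjusted p = 0.121) without wild-type replicate 1 at day 0, while it stood at 103% in knockout cells, where day 0 and day 1 overlapped. That difference between the genotypes in the response at day 1 was 0.48 (SE 0.18, adjusted p = 0.179) and was not called. At day 3 *Fgf4* was 3.62-fold higher in knockout cells (10.5 ± 1.12 against 2.90 ± 0.799 TPM, mean ± SD, n = 3 each), with a log2 difference of 1.58 (SE 0.12, adjusted p = 2.34e-06). These day 3 levels rest on 30 to 51 reads in wild-type and 139 to 189 reads in knockout libraries.

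The receptors moved the other way. *Fgfr1*, the main FGF receptor of embryonic stem cells (chromosome 8, 25513654 to 25575718, + strand), measured 60.6 and 61.8 TPM in wild-type cells at day 0, 175, 160.1 and 153 TPM at day 1 and 119.6, 115 and 119.8 TPM at day 3. In knockout cells it measured 62.1, 52.3 and 53.8 TPM, then 121, 116 and 106 TPM and 153, 180.2 and 158 TPM. It thus peaked at day 1 in wild-type cells and was highest at day 3 in knockout cells, and the genotypes overlapped only at day 0. The rise from day 0 to day 1 was called in both genotypes, 2.65-fold with a log2 difference of 1.39 (SE 0.09, adjusted p = 2.47e-08) in wild-type and 2.04-fold with 1.02 (SE 0.08, adjusted p = 2.49e-07) in knockout cells. The knockout rise fell short of 2-fold with equal-median scaling (0.93) and under 4 other alternatives (0.97 to 0.99). Between day 1 and day 3 the log2 difference was -0.45 (SE 0.08, adjusted p = 2.42e-04) in wild-type and 0.52 (SE 0.08, adjusted p = 7.39e-05) in knockout cells, opposite in sign, and the difference between the 2 changes was 0.97 (SE 0.11, adjusted p = 1.37e-04), just short of 2-fold. *Fgfr1* was accordingly lower in knockout cells at day 1, by -0.50 (SE 0.08, adjusted p = 6.34e-04), or -0.26 with equal-median scaling, and higher at day 3, by 0.47 (SE 0.08, adjusted p = 0.00200), neither of them 2-fold. In *Fgfr1*, 164 exon bases (1.66%) are shared with the antisense gene *Gm16159*, which reached at most 6.99 TPM, and the library kit does not mark strand.

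*Fgfr2*, the receptor associated with primitive endoderm (chromosome 7, 130162451 to 133123350, - strand, in an annotation with a long read-through transcript), rose from 41 to 82 reads in wild-type and 20 to 36 reads in knockout libraries at day 0. Its level was 1.66 and 0.896 TPM in wild-type libraries at day 0, 15.2, 10.98 and 12.2 TPM at day 1 and 45.4, 44.0 and 48.0 TPM at day 3. The knockout libraries had 0.545, 0.405 and 0.757 TPM, 4.42, 5.16 and 4.52 TPM and 37.0, 44.1 and 41.1 TPM. The knockout libraries lay below every wild-type library at day 0 and day 1, and the genotypes overlapped at day 3. The mean rose 10-fold by day 1 and 35.8-fold by day 3 in wild-type cells, and 8.25-fold and 71.6-fold in knockout cells. Without wild-type replicate 1 at day 0, the wild-type rises were 14.3-fold and 51.1-fold. At day 1 the knockout level was 2.72-fold lower, with a log2 difference of -1.27 (SE 0.15, adjusted p = 5.12e-05), the only one of the 10 genes called between the genotypes at that day. At day 3 the log2 difference was -0.17 (SE 0.15, adjusted p = 0.631), with a 95% interval of -0.48 to 0.15. The read-through transcript shares 314 exon bases (3.04% of the exon length) with *Ctbp2* on the same strand. At the level of *Ctbp2*, reads on these bases could add up to 4.59 TPM in wild-type and 3.74 TPM in knockout cells at day 0, more than the whole value of *Fgfr2* there (1.28 and 0.569 TPM), and up to 1.02 and 1.43 TPM at day 1, so that the day 0 levels and the folds against them are uncertain. *Ctbp2* moved opposite to *Fgfr2*, from a mean of 150.9 to 33.5 and 24.3 TPM in wild-type and from 123 to 46.9 and 27.1 TPM in knockout cells.

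**Figure D1:**
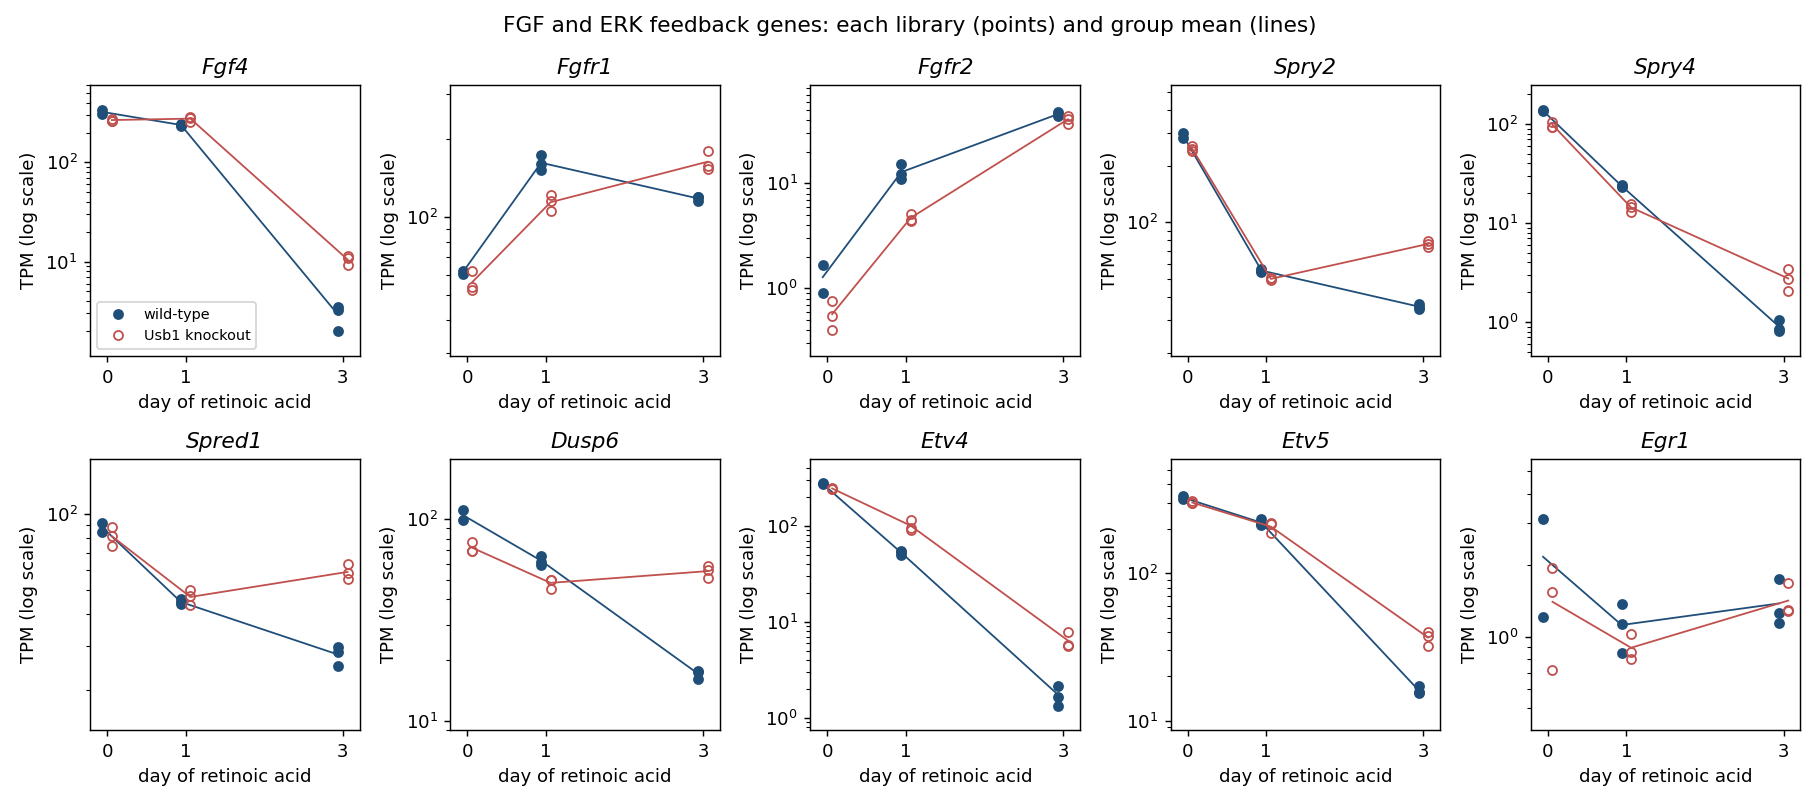
TPM (log scale) of each of the 10 genes against the day of RA, with filled points for wild-type libraries, open points for *Usb1* knockout libraries and lines through group means. *Fgf4*, *Spry4*, *Etv4* and *Etv5* drop by day 3 in both genotypes, *Fgfr2* rises, and *Spry2*, *Spred1* and *Dusp6* lie further apart between the genotypes at day 3 than at day 1.

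The ratio of *Fgfr1* to *Fgfr2* in the same library summarised this shift. It was 36.5 and 69.0 in the wild-type libraries at day 0, 11.5 to 14.6 at day 1 and 2.50 to 2.64 at day 3. The knockout libraries gave 71.1 to 129, then 22.4 to 27.5 and 3.86 to 4.15. At each day every knockout library had a higher ratio than every wild-type library, so that *Fgfr1* outweighed *Fgfr2* by more in knockout cells throughout the course. The ratio is given as a description, with no test, and its day 0 values carry the uncertainty of *Fgfr2* at that day.

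**Figure D2:**
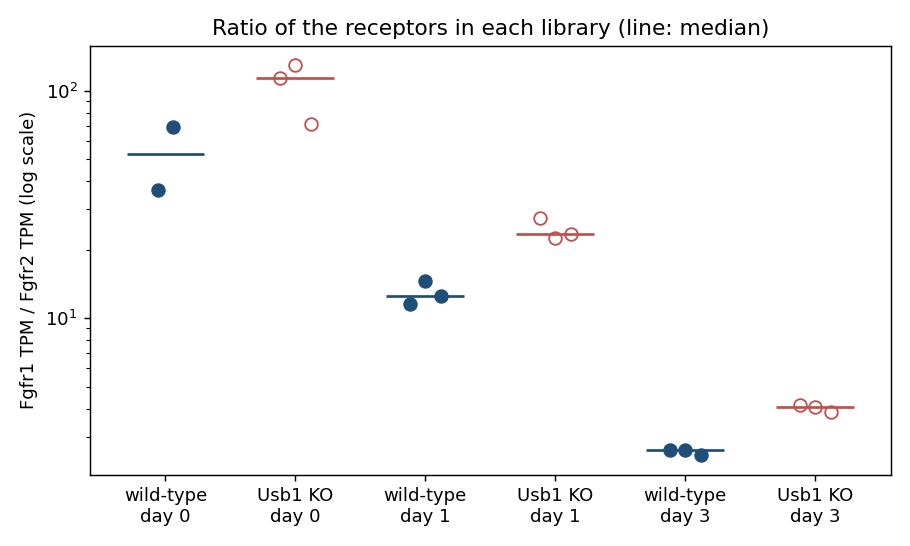
Ratio of *Fgfr1* TPM to *Fgfr2* TPM (log scale) in each library, by genotype and day, with a line at the group median. The ratio falls from 36.5 to 129 at day 0 to 2.50 to 4.15 at day 3, and the knockout points lie above the wild-type points at each day.

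The Sprouty genes were already lower after 1 day. *Spry2*, an inhibitor of receptor tyrosine kinase signalling to ERK (chromosome 14, 105891947 to 105896819, - strand; promoter above), had 283 and 302 TPM in wild-type libraries at day 0, 54.7, 56.6 and 54.5 TPM at day 1 and 36.5, 35.3 and 34.5 TPM at day 3. Knockout libraries had 247, 240.4 and 255 TPM, 50.5, 48.9 and 50.1 TPM and 73.5, 79.5 and 77.1 TPM. The genotypes kept apart at each day, with the knockout slightly lower at day 0 and day 1 and higher at day 3. By day 1 the mean had fallen 5.30-fold in wild-type and 4.97-fold in knockout cells, by -2.39 (SE 0.05, adjusted p = 6.29e-13) and -2.29 (SE 0.05, adjusted p = 3.16e-13). After that the genotypes went in opposite directions: *Spry2* fell further in wild-type cells from day 1 to day 3, by -0.63 (SE 0.05, adjusted p = 4.72e-08), and rose in knockout cells, by 0.61 (SE 0.05, adjusted p = 5.96e-08). The knockout therefore had 2.17-fold the wild-type level at day 3, a log2 difference of 1.09 (SE 0.05, adjusted p = 3.64e-09).

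*Spry4*, a second Sprouty gene (chromosome 18, 38586247 to 38601415, - strand), fell further. Wild-type libraries had 135 and 138 TPM at day 0, 24.3, 23.8 and 23.0 TPM at day 1 and 0.848, 1.06 and 0.809 TPM at day 3. Its values in knockout libraries were 94.5, 94.2 and 106 TPM, 15.7, 14.7 and 12.8 TPM and 2.07, 2.73 and 3.48 TPM. No day had overlapping genotypes, and again the knockout was lower at first and higher at day 3. From day 0 to day 3 *Spry4* fell 151-fold in wild-type and 35.6-fold in knockout cells. In wild-type cells the log2 difference was -2.48 (SE 0.13, adjusted p = 4.79e-09) by day 1 and -3.70 (SE 0.12, adjusted p = 7.57e-12) from day 1 to day 3. In knockout cells these were -2.69 (SE 0.12, adjusted p = 9.01e-10) and -2.05 (SE 0.12, adjusted p = 4.08e-09). At day 3 the knockout level was 3.05-fold higher in TPM, from 17 to 24 reads in wild-type and 51 to 78 reads in knockout libraries. On the log2 scale the difference was 0.97 (SE 0.12, adjusted p = 1.74e-04), short of 2-fold and so not called, and its adjusted p was 0.0617 when only the libraries of this comparison were fitted. It was called with a pseudocount of 0.1 (1.49), with voom on the recovered reads (1.55) and without wild-type replicate 2 (1.02) or knockout replicate 1 (1.10) at day 3.

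*Spred1*, a Sprouty-related protein that holds back Ras activation through neurofibromin (chromosome 2, 117121374 to 117182279, + strand), moved less. It had 84.7 and 91.9 TPM, 45.8, 44.6 and 43.7 TPM and 25.0, 28.3 and 29.7 TPM in wild-type libraries at day 0, day 1 and day 3. It had 88.3, 74.4 and 81.9 TPM, 43.5, 50.0 and 47.1 TPM and 55.3, 58.2 and 63.1 TPM in knockout libraries. The genotypes overlapped at day 0 and day 1 and were apart at day 3. By day 3 the wild-type mean had fallen 3.19-fold, by -1.64 (SE 0.09, adjusted p = 1.31e-09), and the knockout mean 1.39-fold, by -0.46 (SE 0.08, adjusted p = 2.08e-04), which was not called. With equal-median scaling the knockout difference was -0.77. Knockout cells rose from day 1 to day 3 by 0.32 (SE 0.08, adjusted p = 0.00439), although this was 0.10 (adjusted p = 0.258) after scaling the libraries to an equal median. At day 3 *Spred1* was 2.13-fold higher in knockout cells, a log2 difference of 1.06 (SE 0.08, adjusted p = 2.42e-06), which became 0.99 without wild-type replicate 1.

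*Dusp6*, the phosphatase that removes phosphate from ERK in the cytoplasm (chromosome 10, 99263231 to 99267489, + strand), had the largest log2 difference between the genotypes at day 3 of the 10 genes. In wild-type libraries it had 111 and 99.2 TPM at day 0, 61.6, 59.5 and 65.8 TPM at day 1 and 16.1, 17.5 and 17.6 TPM at day 3. In knockout libraries it had 69.8, 69.8 and 77.3 TPM, 50.0, 50.1 and 44.9 TPM and 51.0, 58.9 and 55.9 TPM. It was lower in every knockout library than in every wild-type library at day 0 and day 1, and higher in every one at day 3. The wild-type mean fell 6.15-fold by day 3, by -2.55 (SE 0.08, adjusted p = 4.38e-12), with the larger part on the log2 scale after day 1 (-1.81). The knockout mean fell 1.31-fold, by -0.38 (SE 0.07, adjusted p = 4.70e-04), or -0.69 with equal-median scaling, which was not called. The change from day 1 to day 3 in knockout cells was 0.19 (SE 0.07, adjusted p = 0.0491) and turned to -0.03 with libraries scaled to an equal median. *Dusp6* differed between the genotypes by -0.53 (SE 0.08, adjusted p = 0.00113) at day 0, -0.36 (SE 0.07, adjusted p = 0.00435) at day 1, or -0.12 (adjusted p = 0.389) with equal-median scaling, and 1.64 (SE 0.07, adjusted p = 7.33e-09) at day 3, when it was 3.24-fold higher in knockout cells.

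The ETS factors ended low in both genotypes. *Etv4* (chromosome 11, 101769742 to 101785371, - strand), which encodes a transcription factor of the PEA3 group, had 269 and 276 TPM in wild-type libraries at day 0, 49.5, 54.4 and 53.0 TPM at day 1 and 1.67, 2.18 and 1.35 TPM at day 3. The knockout libraries had 240.4, 248 and 243 TPM, 94.98, 114 and 90.8 TPM and 5.68, 7.85 and 5.69 TPM. The knockout was lower at day 0 and higher at day 1 and day 3, with no overlap. At day 0 the log2 difference was -0.16 (SE 0.14, adjusted p = 0.485) and not called. *Etv4* was the 1 gene of the 10 whose response differed by a call at day 1: by then it had fallen 5.20-fold in wild-type and 2.44-fold in knockout cells, and the difference between these responses was 1.07 (SE 0.18, adjusted p = 0.00871). This call was lost without knockout replicate 2 at day 1, when the value was 0.98. The genotypes differed by 0.91 (SE 0.12, adjusted p = 1.76e-04) at day 1, not quite 2-fold, and by 1.44 (SE 0.12, adjusted p = 6.64e-06) at day 3, when *Etv4* was 3.70-fold higher in knockout cells on 18 to 32 reads in wild-type and 83 to 107 reads in knockout libraries.

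*Etv5*, of the same group (chromosome 16, 22381309 to 22439719, - strand; promoter above), fell later than *Etv4*. It measured 333 and 321 TPM, 233, 213 and 215 TPM and 15.5, 17.1 and 15.6 TPM in wild-type libraries at day 0, day 1 and day 3. It measured 298, 297 and 309 TPM, 215, 219 and 187 TPM and 32.2, 37.6 and 40.1 TPM in knockout libraries. At day 1 the genotypes overlapped and both retained about the same share of day 0, 67.4% in wild-type and 68.6% in knockout cells. By day 3 the fall was 20.3-fold in wild-type and 8.23-fold in knockout cells, by -4.26 (SE 0.09, adjusted p = 5.53e-14) and -3.01 (SE 0.08, adjusted p = 4.15e-13). The knockout level was then 2.28-fold that of wild-type cells, a log2 difference of 1.14 (SE 0.08, adjusted p = 9.59e-07).

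*Egr1*, an immediate early gene that ERK induces within minutes (chromosome 18, 34859823 to 34864984, + strand), was barely expressed in any group. It had 1.21 and 3.12 TPM, 1.37, 0.852 and 1.13 TPM and 1.25, 1.74 and 1.14 TPM in wild-type libraries, and 0.725, 1.54 and 1.94 TPM, 0.804, 0.859 and 1.03 TPM and 1.296, 1.68 and 1.28 TPM in knockout libraries, at day 0, day 1 and day 3. The 2 wild-type libraries at day 0 spanned nearly the whole range. None of its comparisons had an adjusted p under 0.05, and at day 3 the 95% interval of the difference between the genotypes was -0.50 to 0.56 (adjusted p = 0.996). At 15 to 62 reads a library, differences within such intervals were not detectable.

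**Figure D3:**
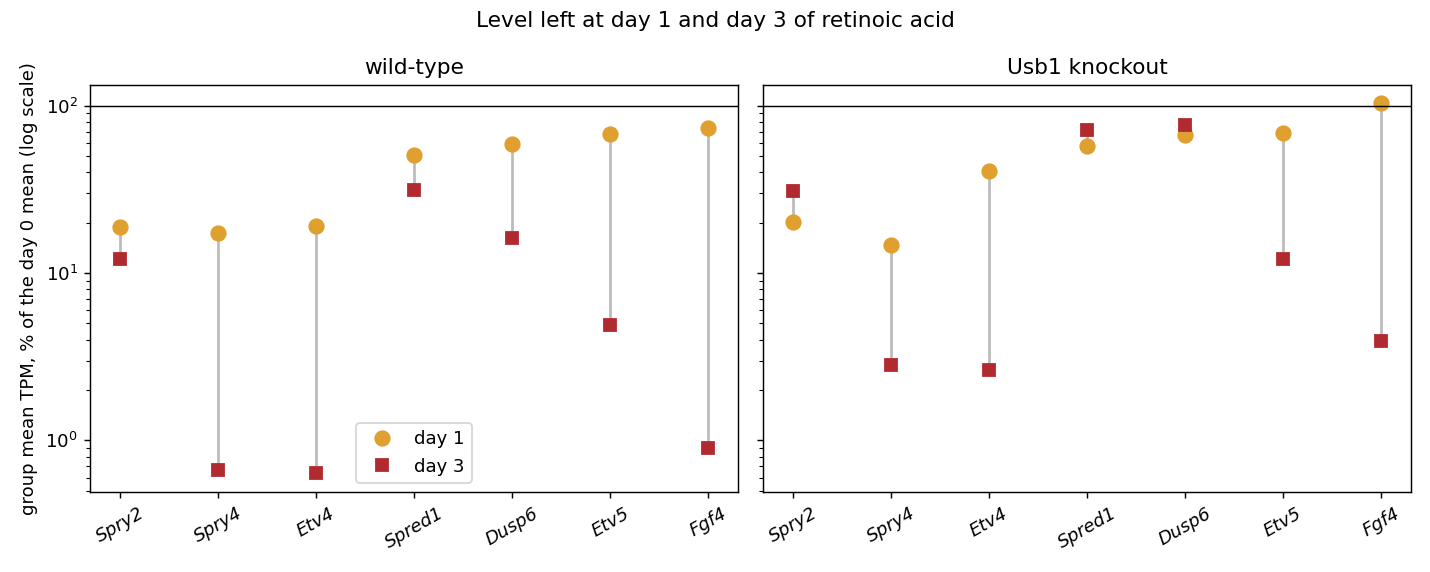
Group mean TPM at day 1 (circles) and day 3 (squares) as a percent of the day 0 mean of the same genotype (log scale), for the 7 genes called lower at day 3 in wild-type cells. In wild-type cells each square lies below its circle, while in knockout cells *Spry2*, *Spred1* and *Dusp6* have squares above their circles.

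Set side by side, the 7 genes that were called lower at day 3 in wild-type cells (*Fgf4*, *Spry2*, *Spry4*, *Spred1*, *Dusp6*, *Etv4* and *Etv5*) differed in the level left after 1 day. On the log2 scale, *Spry2* and *Spred1* had the larger part of their wild-type fall by day 1 (-2.39 and -0.97, then -0.63 and -0.68). The others fell by more after day 1, as with *Etv4* (-2.36, then -4.30) and *Spry4* (-2.48, then -3.70). *Spry2*, *Spry4* and *Etv4* were at 18.9%, 17.4% and 19.2% of day 0 after 1 day in wild-type cells. *Spred1*, *Dusp6*, *Etv5* and *Fgf4* still stood at 50.6%, 59.3%, 67.4% and 73.9%. After 3 days *Etv4*, *Spry4* and *Fgf4* were at 0.636%, 0.664% and 0.897%, *Etv5* was at 4.92%, and *Spry2*, *Dusp6* and *Spred1* were at 12.1%, 16.3% and 31.3%. Knockout cells had kept more of each at day 3: 2.63% of *Etv4*, 2.81% of *Spry4*, 3.92% of *Fgf4*, 12.1% of *Etv5*, 31.0% of *Spry2*, 72.2% of *Spred1* and 76.5% of *Dusp6*. These shares are of TPM without further scaling, and the knockout falls of *Spred1* and *Dusp6* were larger with equal-median scaling. The ligand *Fgf4* thus remained high in both genotypes on the day when *Spry2* and *Spry4* had already fallen.

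By count, 5 of the 10 genes were called in wild-type cells at day 1 against day 0 (*Spry2*, *Spry4* and *Etv4* lower, *Fgfr1* and *Fgfr2* higher), where 13.9% of all genes tested were called. The same 5 were called in knockout cells, against 6.95% of all genes. At day 3 against day 0, 8 were called in wild-type cells, 7 of them lower, where 25.8% of all genes were called and 9.68% were called lower. In knockout cells 7 were called, 5 of them lower (*Fgf4*, *Spry2*, *Spry4*, *Etv4* and *Etv5*), against 21.9% and 8.04% of all genes. Between day 1 and day 3 the counts were 6 in wild-type cells and 5 in knockout cells, against 15.2% and 15.3%. The gene called in wild-type cells alone was *Dusp6*, as *Fgf4*, *Spry4*, *Etv4* and *Etv5* were called lower and *Fgfr2* higher in both genotypes. The median log2 difference of the 10 genes at day 3 against day 0 was -2.78 in wild-type and -1.07 in knockout cells, where the medians of all genes were 0.10 and 0.03.

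Between the genotypes at day 0, none of the 10 genes was called by limma or by limma's voom on recovered reads, where 3.05% of all genes were called by limma. For the counts that follow, shares of all genes without the 2-fold rule are not given here. At an unadjusted p under 0.05 there were 4, and 3 of these had an adjusted p under 0.05, all lower in knockout cells by less than 2-fold, namely *Dusp6*, *Spry4* at -0.47 (SE 0.13, adjusted p = 0.0367) and *Spry2* at -0.24 (SE 0.05, adjusted p = 0.00888). The fourth was *Fgfr2*, called with a pseudocount of 0.1, at 2.25-fold lower TPM and a log2 difference of -0.52 (SE 0.16, adjusted p = 0.0525), or 1.57-fold and -0.28 (adjusted p = 0.402) without wild-type replicate 1. The adjusted p of *Spry4* missed 0.05 under 10 alternatives, among them without wild-type replicate 1 (0.131) and with equal-median scaling (0.0762). That of *Spry2* missed it under 3, with a difference of -0.12 (adjusted p = 0.398) at an equal median, and that of *Dusp6* when only the day 0 libraries were fitted (0.0721). The other 6 had log2 differences between -0.37 and -0.11, all below 0, with 95% intervals of -0.56 to 0.01 for *Fgf4* and -0.45 to 0.13 for *Etv4*.

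At day 1, 1 of the 10 was called between the genotypes (*Fgfr2*, lower), against 2.22% of all genes. 6 had an adjusted p under 0.05, of which *Etv4* was higher in knockout cells and *Fgfr1*, *Fgfr2*, *Spry2*, *Spry4* and *Dusp6* were lower. The share of all genes at that adjusted p without the 2-fold rule is not given here. The median of all genes was itself at -0.13 in this comparison, so that *Spry2*, at -0.15 (SE 0.05, adjusted p = 0.0436), was level with it, and its sign turned (0.09) after scaling to an equal median. Its adjusted p missed 0.05 under 10 alternatives in all. *Spry4* stood further out, at -0.69 (SE 0.12, adjusted p = 0.00151).

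At day 3, 6 of the 10 were called (*Fgf4*, *Spry2*, *Spred1*, *Dusp6*, *Etv4* and *Etv5*), all higher in knockout cells, where 1.29% of all genes were called and 0.521% were called higher. The median log2 difference of the 10 genes was 1.08, and that of all genes was 0. In order of the ratio of mean TPM, knockout to wild-type, these were *Etv4* at 3.70, *Fgf4* at 3.62, *Dusp6* at 3.24, *Spry4* at 3.05, *Etv5* at 2.28, *Spry2* at 2.17 and *Spred1* at 2.13. *Fgfr1* followed at 1.39, and *Egr1* and *Fgfr2* were at 1.03 and 0.890. The 8 genes with an adjusted p under 0.05 at day 3 were the 7 that had fallen in wild-type cells and *Fgfr1*. For that count too, the share of all genes without the 2-fold rule is not given here.

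**Figure D4:**
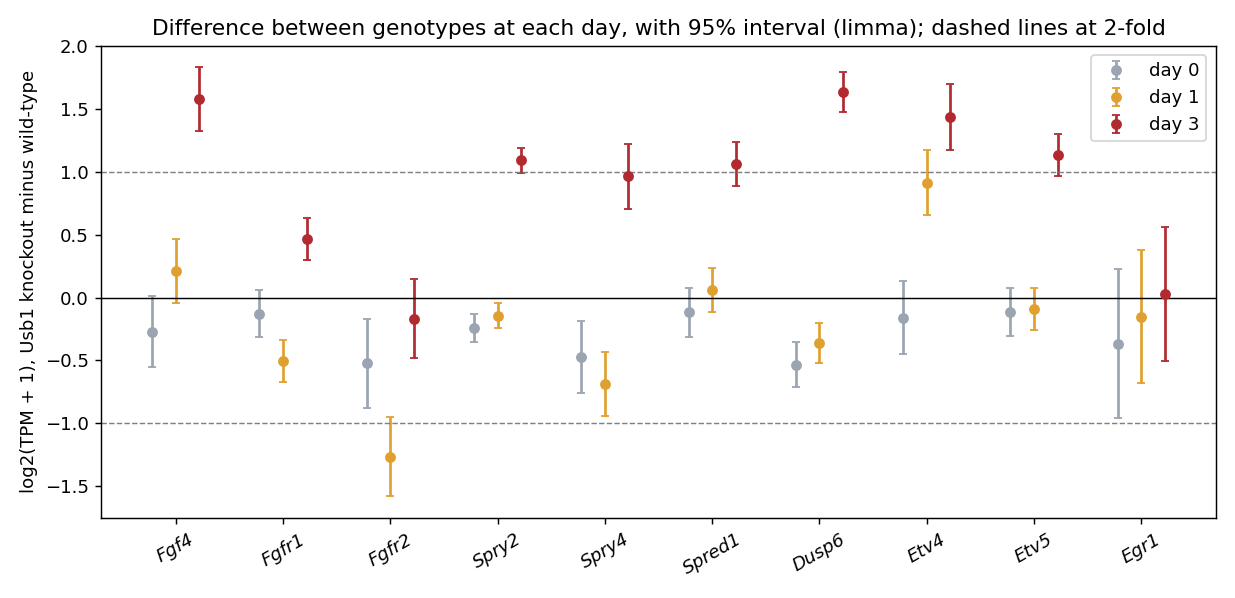
Difference in log2(TPM + 1) between *Usb1* knockout and wild-type cells for each gene at day 0, day 1 and day 3, with 95% intervals from limma and dashed lines at 2-fold. At day 3 the points of *Fgf4*, *Spry2*, *Spry4*, *Spred1*, *Dusp6*, *Etv4* and *Etv5* lie between 0.97 and 1.64, while at day 0 all 10 lie between -0.53 and -0.11.

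Whether the response to RA itself differed was tested as an interaction, which uses the same libraries as the comparisons above. From day 0 to day 1 it was called for 1 of the 10 genes (*Etv4*), against 0.86% of all genes. From day 0 to day 3 it was called for 7, all in the direction of a smaller fall in knockout cells, where 2.42% of all genes were called and 1.17% were called in that direction. The largest was *Dusp6* at 2.17 (SE 0.11, adjusted p = 9.49e-08), followed by *Fgf4* at 1.85 (SE 0.18, adjusted p = 7.06e-05) and *Etv4* at 1.60 (SE 0.18, adjusted p = 2.47e-04). *Spry4*, *Spry2*, *Etv5* and *Spred1* followed at 1.44, 1.33, 1.25 and 1.18. From day 1 to day 3 it was called for 7 as well, against 2.25% of all genes, with *Fgfr2* at 1.10 (SE 0.21, adjusted p = 0.00528) in place of *Etv4* at 0.52 (SE 0.17, adjusted p = 0.0850). With quantile or equal-median scaling 5 were called, as *Fgfr2* (0.90 and 0.91) and *Spred1* (0.92 and 0.78) fell short of 2-fold. For *Fgfr2* the value expressed a larger rise in knockout cells, which began from the lower level at day 1.

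Markers of cell state also differed between the genotypes, where 3.05%, 2.22% and 1.29% of all genes were called at day 0, day 1 and day 3. At day 3 the sum of the 7 embryonic stem cell markers was 545 to 559 TPM in wild-type and 706 to 819 TPM in knockout libraries, with 2 of the 7 called, both higher. The sum of 7 primitive endoderm markers was 1510.4 to 1818 TPM in wild-type and 603 to 722 TPM in knockout libraries, with 4 called, all lower. 5 RA targets summed to 747 to 876 TPM and 415 to 455 TPM, with 1 called, lower. The genotypes were apart in the sums of 2 of these lists before RA. At day 0 the primitive endoderm markers summed to 139 to 154 TPM in wild-type and 95.9 to 119.7 TPM in knockout libraries, with none of the 7 called. Of these 7, 3 had a mean under 1 TPM in wild-type and 4 in knockout cells, so the sum rests on the others. The RA targets summed to 29.8 to 30.9 TPM and 13.96 to 14.7 TPM at day 0, with 2 of 5 called, both lower. At day 1 the primitive endoderm markers summed to 119.8 to 143 TPM in wild-type and 38.8 to 50.6 TPM in knockout libraries. Of these markers, 4 were called, all lower. The RA targets summed to 1062 to 1125 TPM and 568 to 609 TPM at day 1, with 2 of 5 called, both lower. The 7 fibroblast markers summed to 44.5 to 54.2 TPM and 71.7 to 80.3 TPM at day 3, with 1 of the 5 tested called, higher in knockout cells, and with *Postn* and *Lum* under 1 TPM. The sum of 4 stress genes at day 3 was 139 to 161 TPM in wild-type and 76.4 to 85.9 TPM in knockout libraries, with none called. The part of these cell states in the day 3 levels of the FGF and ERK genes was not tested.

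Ranked by TPM, the order of the genes was alike in the genotypes at day 0 and parted at day 3. At day 0 *Etv5* and *Fgf4* led in both, followed by *Spry2*, *Etv4* and *Spry4*, and *Egr1* and *Fgfr2* came last. *Etv5* and *Fgf4* overlapped in wild-type libraries, *Spry2* and *Etv4* and then *Spred1* and *Dusp6* overlapped in knockout libraries, and *Egr1* and *Fgfr2* overlapped in both. *Fgf4* led at day 1 in both genotypes, followed by *Etv5* and *Fgfr1*, with *Fgfr1* and *Etv4* overlapping in knockout libraries. At day 3 *Fgfr1* led in both. *Fgfr2* stood second in wild-type cells at 45.8 ± 2.04 TPM (mean ± SD, n = 3, as for the values that follow), above *Spry2* at 35.4 ± 0.999 TPM, *Spred1* at 27.7 ± 2.45 TPM and *Dusp6* at 17.1 ± 0.809 TPM. It was the fifth in knockout cells at 40.7 ± 3.58 TPM, below *Spry2* at 76.7 ± 3.03 TPM, *Spred1* at 58.9 ± 3.94 TPM and *Dusp6* at 55.3 ± 4.001 TPM, of which *Spred1* and *Dusp6* overlapped.

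Over the 17 libraries, the pattern of each gene was compared with those of 12445 genes with a mean of at least 5 TPM by Pearson's r of log2(TPM + 1), as a description of libraries that share their days and genotypes. *Etv4* was most like *Esrrb*, a pluripotency factor (r = 0.997), and *Etv5* most like *Sox2*, another (r = 0.995). *Spry4* was most like *Tdgf1*, the co-receptor Cripto (r = 0.993), and the immediate early gene *Nr4a1* (r = 0.990). *Fgf4* was closest to *Mymx* (r = 0.994) and *1700019D03Rik* (r = 0.993), and *Etv5* was also close to *1700019D03Rik* (r = 0.995). *Fgfr2* was closest to *Ube2h* (r = 0.996) and *Ssbp3* (r = 0.994), and *Fgfr1* to *Armcx2* (r = 0.976) and *Nrip1* (r = 0.971). *Spry2* went with *Enox1* (r = 0.967) and *Nol9* (r = 0.958), and *Spred1* with *Tfap2c* (r = 0.932) and *Spry2* itself (r = 0.925). *Dusp6* had *Hunk* (r = 0.935) and *Nap1l1* (r = 0.930), *Etv4* had the pseudogene *Gm18363* second (r = 0.995), and *Egr1* had no near neighbour, with *Rad52* at 0.745 and *Rrp36* at 0.719. Among the 7 genes that fell in wild-type cells, r over the 21 pairs ranged from 0.523 (*Fgf4* and *Spry2*) to 0.990 (*Fgf4* and *Etv5*), with a median of 0.826.

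The rest of the pathway was described from a list of 78 other genes, of which 66 passed the filter. Between the genotypes 2 of the 66 were called at day 0, 4 at day 1 and 9 at day 3, where 3.05%, 2.22% and 1.29% of all genes were called. The day 0 share is close to that of all genes. The feedback inhibitors and ERK phosphatases (12 genes, all tested) gave 4 called at day 3, all higher in knockout cells, with a median log2 difference of 0.39 over the 12. These were *Il17rd*, which encodes the FGF antagonist Sef, *Spred3*, *Spry1* and *Dusp4*. At day 3 *Il17rd* had 8.24 ± 0.830 TPM in wild-type libraries against 22.2 ± 3.05 TPM in knockout libraries (mean ± SD, n = 3 each, as for the next genes), a log2 difference of 1.32 (SE 0.15, adjusted p = 5.88e-05). *Spry1* had 13.1 ± 0.281 and 27.8 ± 2.17 TPM, a log2 difference of 1.03 (SE 0.11, adjusted p = 3.65e-05), and *Spred3* had 3.09 ± 0.621 and 7.56 ± 1.85 TPM, a log2 difference of 1.05 (SE 0.18, adjusted p = 0.00225). *Dusp4*, a nuclear ERK phosphatase that lies at the 2-fold limit and is named here after its values were seen, had 28.1 ± 0.824 and 57.6 ± 8.63 TPM, a log2 difference of 1.00 (SE 0.20, adjusted p = 0.00582). Unlike the feedback genes of the main set, *Dusp4* rose with RA, 7.12-fold in wild-type and 7.59-fold in knockout cells by day 3. At day 0 *Dusp5*, another nuclear ERK phosphatase, was higher in knockout cells, at 18.2 to 25.9 TPM against 2.03 to 13.3 TPM, by 1.76 (SE 0.41, adjusted p = 0.0135). That call and the one for *Fgf1* were lost without wild-type replicate 1 at day 0, when none of the 66 was called.

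**Figure D5:**
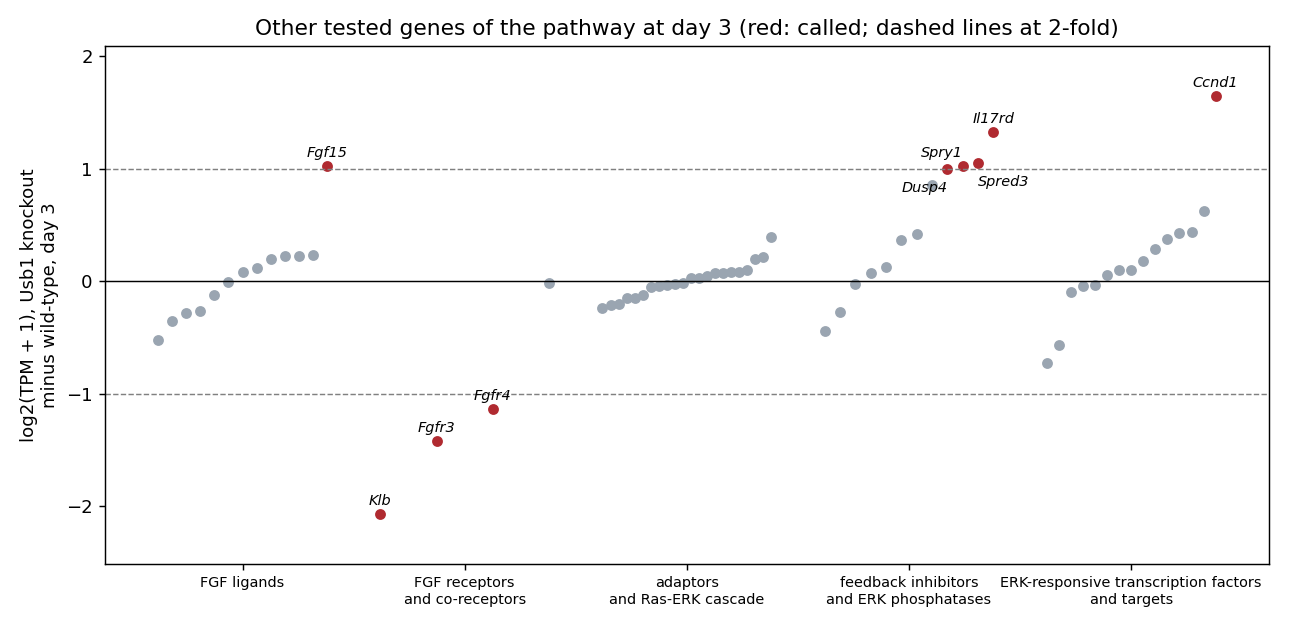
Difference in log2(TPM + 1) between *Usb1* knockout and wild-type cells at day 3 for the 66 other tested genes of the pathway, grouped by role, with called genes in red and dashed lines at 2-fold. The 3 called receptor genes lie below 0, the 4 called feedback inhibitors, *Fgf15* and *Ccnd1* above it, and none of the 22 cascade genes is called.

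Most receptors and co-receptors other than *Fgfr1* and *Fgfr2* were lower in knockout cells at day 3. Of the 4 tested, 3 were called, all 3 lower, where 1.29% of all genes were called. *Klb*, the co-receptor beta-Klotho of endocrine FGFs, rose in wild-type cells from 0.839 ± 0.766 TPM (n = 2) to 43.3 ± 1.36 TPM (n = 3) and in knockout cells from 0.313 ± 0.0474 to 9.67 ± 1.75 TPM (n = 3 each, mean ± SD), with a log2 difference between the genotypes of -2.07 (SE 0.21, adjusted p = 2.42e-05) at day 3. *Fgfr3* reached 17.9 to 19.5 TPM in wild-type and 5.52 to 7.73 TPM in knockout libraries, by -1.42 (SE 0.14, adjusted p = 1.88e-05). *Fgfr4* reached 17.1 to 20.01 TPM and 7.21 to 8.31 TPM, by -1.14 (SE 0.19, adjusted p = 0.00191). Both had lower means in knockout cells earlier too, with no call. *Fgfr3* had 5.67 TPM in wild-type and 2.84 TPM in knockout cells at day 0, and *Fgfr4* 10.9 and 5.43 TPM at day 1. The response from day 0 to day 3 was called for 1 of the 4, lower in knockout cells, where 2.42% of all genes were called. *Fgfrl1*, a receptor without a kinase domain, rose 4.70-fold and 5.15-fold by day 3 in wild-type and knockout cells. It did not differ by a call there, with means of 38.3 and 37.9 TPM. The 3 called genes (*Klb*, *Fgfr3* and *Fgfr4*) moved alongside the primitive endoderm markers given above, and the part of that was not tested.

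Of 13 other genes of the FGF family tested, 3 were called higher in knockout cells at day 1. *Fgf17* had fallen in wild-type cells from 52.9 ± 4.90 TPM (n = 2) to 2.82 ± 0.720 TPM (n = 3) and in knockout cells from 51.8 ± 4.02 to 10.3 ± 2.18 TPM (n = 3 each, mean ± SD), which left a log2 difference of 1.57 (SE 0.23, adjusted p = 3.91e-04). *Fgf15* stood at 6.30 ± 0.169 and 17.4 ± 3.45 TPM, by 1.32 (SE 0.20, adjusted p = 6.07e-04), and *Fgf18* at a mean of 5.93 and 21.2 TPM, by 1.70 (SE 0.28, adjusted p = 8.69e-04). *Fgf15* was also called at day 3, at 0.540 and 2.096 TPM, and *Fgf1* at day 0, at 0.645 and 2.41 TPM. None of the 22 adaptors and members of the Ras-ERK cascade was called by limma or voom between the genotypes at any day. Of all genes, limma called 3.05%, 2.22% and 1.29% at day 0, day 1 and day 3. At an unadjusted p under 0.05 there were 12 at day 0, 17 at day 1 and 5 at day 3, all under 2-fold. The share of all genes at that threshold is not given here, so these counts show no shift of the cascade. The median log2 differences were -0.19 at day 0, -0.34 at day 1 and 0.00 at day 3, where the median of all genes was -0.13 at day 1.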

How the data were processed

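The authors prepared NEBNext Ultra libraries from total RNA, read them on an Illumina NovaSeq and deposited TPM values that were derived from gene length and mapped reads. The submitters' processing notes list HISAT2 2.1.0, StringTie 1.3.6 and GRCm38.p6. TPM is relative to each library's total. Multiplying TPM by exon length in GENCODE M21 and dividing by a library-specific step gave whole reads (within 0.01) for 95.9% to 96.7% of genes above 0, and depth refers to these reads. As the values are TPM and not counts, limma (3.58.1, R 4.3.3) was run on log2(TPM + 1) over genes that reached 1 TPM in 2 or more libraries, with a mean for each of 6 groups, a variance trend and Benjamini-Hochberg adjustment within each of 12 comparisons. The fit was tested on simulated data. The squared differences between replicates of a group were on average 2.94 to 17.2 times their counting variance, so none was counted as a repeat. Tables and figures were made with matplotlib 3.10.9, pandas 2.3.3 and numpy 2.4.6 in Python 3.11.15.

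The 10 genes and all lists were chosen with earlier results of these data known. Named besides these were, in each role list, up to 3 called genes with the largest differences between the genotypes or against day 0, and for each of the 10 genes the 2 genes of highest r. *Ddit3*, listed under 2 identifiers, was left out of the stress list. Alternatives were a pseudocount of 0.1, no filter or a filter at 5 TPM, no fold minimum, quantile or equal-median scaling, robust variance, the libraries of a comparison alone, a replicate block, voom on recovered reads, and leaving out each library. Splicing and protein sequences were not analysed here, and 1 list of cell type markers is not reported here.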

Additional observations from a re-analysis of the deposited data

Results flagged for a closer look

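The response to RA differed between *Usb1* knockout and wild-type cells for 8 of the 10 genes in at least 1 interval by an interaction term in limma, with an adjusted p under 0.05 and at least a 2-fold difference. The share of all genes called in at least 1 interval is not given here. By interval, 0.86% of all genes were called from day 0 to day 1, 2.42% from day 0 to day 3 and 2.25% from day 1 to day 3. Values are the log2 change in knockout cells minus that in wild-type cells. From day 0 to day 1 this held for *Etv4*, at 1.07 (SE 0.18, adjusted p = 0.00871). From day 0 to day 3 it held for *Dusp6* (2.17), *Fgf4* (1.85), *Etv4* (1.60), *Spry4* (1.44), *Spry2* (1.33), *Etv5* (1.25) and *Spred1* (1.18), with adjusted p from 9.49e-08 to 5.27e-04. From day 1 to day 3 it held for *Dusp6* (2.00), *Spry4* (1.65), *Fgf4* (1.37), *Spry2* (1.24), *Etv5* (1.23), *Fgfr2* (1.10) and *Spred1* (1.00), with adjusted p from 1.03e-07 to 0.00528. The value of *Spred1* lies at the 2-fold limit, and it and *Fgfr2* fell short of 2-fold in this last interval with quantile or equal-median scaling, which left 5 of the 7. The 2 later intervals share the day 3 libraries and are not independent of each other.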

How the results depend on the processing

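For the 87 differences of the 10 genes with an adjusted p under 0.05, 1464 values were computed under the alternatives; 1403 kept their direction and their side of the call, 17 lost the call, 42 gained it and 2 turned sign. Both turned with libraries scaled to an equal median: *Spry2* between the genotypes at day 1 (0.0935, adjusted p = 0.471) and *Dusp6* from day 1 to day 3 in knockout cells (-0.0311, adjusted p = 0.806). Between the genotypes at day 0, 1 gene was called with a pseudocount of 0.1 and 3 with no fold minimum, in place of none. At day 1, 2 were called with an equal median or with voom and 6 with no fold minimum, in place of 1. With no fold minimum the count also rose from 5 to 9 at day 1 against day 0 in wild-type cells, from 5 to 8 in knockout cells, and from 5 to 9 for day 3 against day 1 in knockout cells. Among the 66 other genes, no fold minimum gave 15, 31 and 16 between the genotypes at day 0, day 1 and day 3 and, against day 0, 40 at day 1 and 45 at day 3 in wild-type cells and 28 and 46 in knockout cells, in place of 2, 4, 9, 16, 26, 11 and 26. Their count of 2 at day 0 was also 4 with a pseudocount of 0.1, 1 with a filter at 5 TPM or quantile scaling, 5 with voom, and 0 in the libraries of the comparison alone. Shares of all genes with no fold minimum are not given here, so the counts under that setting have no background beside them.

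Leaving out each library gave 5 to 7 genes of the set called at day 3 between the genotypes, 4 to 5 in knockout and 5 to 6 in wild-type cells at day 1 against day 0, 0 to 1 for the interaction at day 1 and 5 to 8 for that from day 1 to day 3. The call of *Fgfr1* in knockout cells at day 1 was lost without replicate 2 or 3 at day 0 or replicate 1 at day 1 (0.97 to 0.99), and with quantile (0.98) or equal-median (0.93) scaling. *Spred1* in wild-type cells at day 1 was called without wild-type replicate 1 at day 0 (-1.02). For the interaction from day 1 to day 3, *Spred1* lost its call without wild-type replicate 1 at day 1 (0.98) or day 3 (0.93), or without knockout replicate 1 at day 1 or 3 at day 3 (both 0.95), and *Fgfr2* without wild-type replicate 1 at day 1 (0.98). *Spred1* also lost it with quantile (0.92) or equal-median (0.78) scaling and voom (0.93), and *Fgfr2* with quantile (0.90) or equal-median (0.91) scaling, which left 5 called in place of 7 under either scaling and 6 with voom. Below the 2-fold rule, 9 of the 87 differences missed an adjusted p of 0.05 under at least 1 alternative. With no fold minimum, counts not named above also rose, from 6 to 8 between the genotypes at day 3. They rose from 6 to 9 for day 3 against day 1 in wild-type cells. For day 3 against day 0 they rose from 8 to 9 in wild-type and from 7 to 9 in knockout cells. Both interactions that end at day 3 rose from 7 to 8. With quantile scaling *Fgfr1* was called at day 3 against day 0 in wild-type cells (1.003). Among the 66 other genes at day 0, the count was 0 without wild-type replicate 1 and 4 without replicate 2. Replicate numbers are not tied to a shared batch in the labels, and the deviations of same-numbered libraries correlated between -0.13 and 0.12, so the numbers do not pair the samples. With a replicate block, 6 genes of the set were called at day 3 between the genotypes, and the other 11 counts were also as without it.

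Depth limits *Egr1* throughout, *Fgfr2* at day 0, and *Spry4*, *Etv4* and *Fgf4* at day 3 in wild-type cells.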

Other observations

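Of 15 other ERK-responsive transcription factors and targets tested, 10 were called at day 3 against day 0 in wild-type cells, 4 higher and 6 lower, and 9 in knockout cells, 4 higher and 5 lower, where 25.8% and 21.9% of all genes were called. *Junb*, a component of AP-1, dropped and partly recovered: wild-type cells had 125 ± 21.9 TPM (mean ± SD, n = 2) at day 0, 21.3 ± 2.45 TPM (n = 3) at day 1 and 60.2 ± 4.44 TPM (n = 3) at day 3, and knockout cells had 146 ± 1.70, 18.2 ± 1.11 and 58.7 ± 8.78 TPM (n = 3 each). *Myc* followed a like course, with means in wild-type cells of 89.3, then 21.03 and 52.3 TPM, and in knockout cells of 60.7, then 17.2 and 64.2 TPM. *Jun* rose instead, 20.1-fold in wild-type and 25.0-fold in knockout cells by day 3. *Ccnd1*, which encodes cyclin D1, was the only one of the 15 called by limma between the genotypes at day 3 (voom and a pseudocount of 0.1 also called *Etv1*), with 22.8 ± 1.07 TPM in knockout against 6.67 ± 1.09 TPM in wild-type cells (mean ± SD, n = 3 each), a log2 difference of 1.64 (SE 0.10, adjusted p = 2.75e-07).

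*Dusp9*, an ERK phosphatase with a role in embryonic stem cells, rose from day 0 to day 1 while *Dusp6* fell, and then fell in both genotypes. Wild-type cells had 268 ± 27.3 TPM (mean ± SD, n = 2), 2002 ± 107 TPM (n = 3) and 537 ± 16.1 TPM (n = 3) in turn, and knockout cells 227 ± 8.04, 1578 ± 60.7 and 529 ± 29.3 TPM (n = 3 each), so that it peaked at day 1 in both genotypes, when *Spry2* and *Spry4* had fallen. At its peak *Dusp9* was several times more abundant per length than any of the 10 genes in any group.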
